A study of Lolium arundinaceum with 18 samples.

Results

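The C-repeat (CRT) binding factors described here are 2 unigenes of tall fescue leaves, TRINITY_DN37211_c0_g1 and TRINITY_DN112537_c0_g1, both annotated by the authors as CRT-binding factor. They are 2 of 109684 unigenes in the assembled transcriptome and were chosen by name together with their known levels over the 6 groups, so those levels are given as a description with no test of their own. Tall fescue is a perennial grass grown for turf and forage. Leaf RNA was sequenced from CK plants sprayed with double-distilled water, from plants sprayed with silicon nanoparticles (Si NPs, 300 mg/L) and from plants sprayed with cellulose nanocrystals (CNCs, 100 mg/L), all at 65 to 75% of field capacity, and from the drought groups DS, DS_Si NPs and DS_CNCs, at 35 to 45% of field capacity, after 20 days of treatment. Each group held 3 libraries, 18 in all. The same particle doses were used under both water regimes. In the methods Tween-20, a surfactant, is named at 0.05% for particle sprays alone, and no spray is named for DS, so effects of surfactant, spraying and particle cannot be told apart. The time of day at which leaves were taken is not given in the sources used here.

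CBF proteins, also called DREB1 proteins, are transcription factors of the AP2/ERF family that bind the C-repeat or dehydration-responsive element in promoters. In Arabidopsis they are induced within hours of chilling, are gated by the circadian clock and by regulators such as ICE1 and the CAMTA proteins, and switch on cold-regulated (COR) proteins, dehydrins and enzymes of protective sugars, while raising gibberellin 2-oxidases that slow growth. In wheat and barley the family is large, with many copies clustered at a frost-resistance locus, and single copies differ in their response to cold and to drying. In this data set it was also large, since 48 other unigenes carried a CBF or DREB1 name.

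The unigene DN37211_c0_g1 is 424 bases long and was assembled from 2 transcripts. Its best SwissProt match is DREB1B, and it was placed in the ERF family of transcription factors. The unigene DN112537_c0_g1 is 239 bases long, comes from 1 transcript and has no SwissProt match. Unigenes with a CBF or DREB1 name ranged from 202 to 2140 bases here. Reads of near-identical copies can be split between unigenes by the estimate of counts. Whether DN37211_c0_g1 and DN112537_c0_g1 are separate genes, copies from different subgenomes or pieces of 1 transcript was not tested.

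Estimated counts summed to between 16175624 and 26102122 per library. The library CK 3 lay unusually close to a weighted mean of the other CK libraries (weight 0.48 for CK 1): over unigenes with a mean of at least 5 TPM, a measure of transcript abundance scaled for length and library total, its median distance from that mean was 0.13 in log2, against 0.26 to 0.61 for the same measure in the other 17 libraries. Comparisons with CK are therefore also given without CK 3. Of the leaf markers, 61 unigenes for the small subunit of Rubisco and for chlorophyll a/b-binding proteins summed to 49416 to 134835 TPM in every library and none was at 0 throughout. The 4 root-named unigenes summed to 8.51 to 196 TPM, of which root-specific lectin DN2378_c2_g1 was the most abundant (means of 99.0 TPM in CK, 12.6 in CNCs, 91.1 in DS and 17.0 in DS_CNCs). The 28 flower and seed names (mostly MADS-box factors that leaves also express) summed to 114 to 233 TPM, and no unigene had a fungal product name. In bulk leaf RNA, fewer cells of a type and less RNA per cell cannot be told apart.

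DN37211_c0_g1 was low in watered control leaves, at 1.78, 0.17 and 0.50 TPM in CK 1, CK 2 and CK 3. In Si NPs leaves it stood at 4.44, 24.2 and 20.2 TPM. Every Si NPs library was above every CK library. In CNCs leaves the levels were 8.02, 0.23 and 5.54 TPM, and the second of these lay within the CK range. In DS leaves they were 0.25, 0.69 and 5.03 TPM, so drought alone gave 1 library above CK and 2 inside its range. With drought and Si NPs the levels were 8.26, 31.7 and 16.4 TPM. With drought and CNCs they were 26.1, 37.3 and 15.4 TPM. All 6 libraries of droughted, particle-treated leaves were above all 3 DS libraries. Both CRT-binding factors were chosen on these levels, so separation of their libraries here and below is description only. The share of all unigenes with such separation is not given here.

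DN112537_c0_g1 had no read at all in CK or DS. It was present in each of the 12 libraries of particle-treated leaves. In Si NPs leaves its level was 18.5, 13.8 and 48.8 TPM, from 29.8, 14.9 and 53.2 estimated counts. In CNCs leaves it was 9.96, 4.73 and 2.28 TPM, from only 14.0, 7.0 and 3.0 counts, the lowest among the treated groups and outside the Si NPs range. Under drought the Si NPs libraries held 34.6, 60.1 and 19.0 TPM. The DS_CNCs libraries held 86.5, 36.9 and 21.8 TPM, and the library DS_CNCs 1 had the highest level of the 18. The pattern of DN112537_c0_g1, absent from all 6 libraries without a particle and present in all 12 with one, was shared by 59 unigenes (0.0538% of the table, 11 of them with a description), among which it ranked 3 by mean level. The reverse pattern, absent from all 12 libraries with a particle and present in all 6 without, was found in 4 unigenes. It asks for no read in more libraries, so the 59 and 4 are not like counts.

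**Figure D1:**
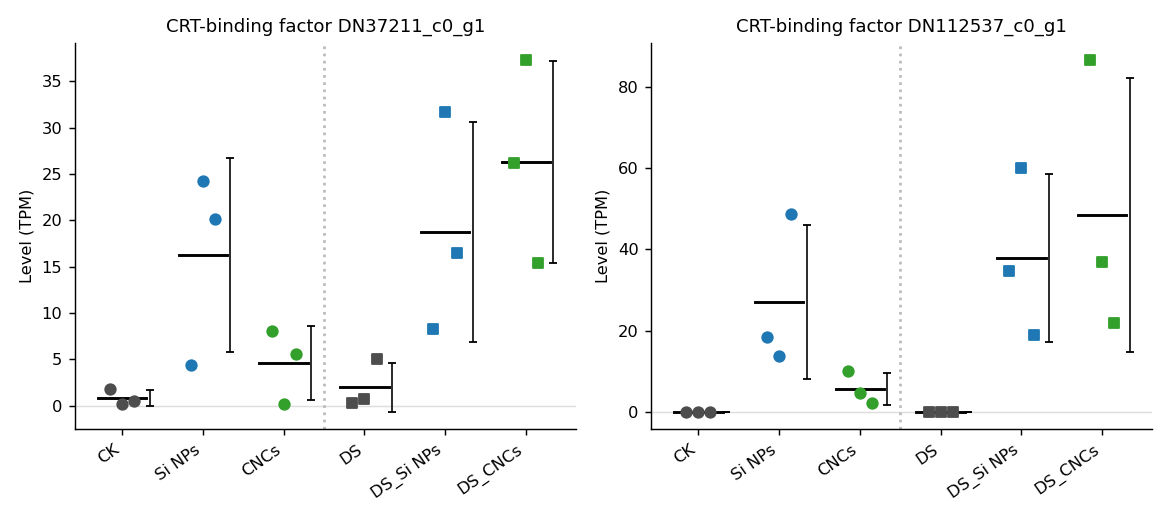
Level of each CRT-binding factor (TPM, linear axis) in the 18 libraries, by group. Circles are watered and squares droughted plants, black lines are group means and the bars beside them 1 SD (n = 3). DN112537_c0_g1 sits at 0 in CK and DS and between 2.28 and 86.5 TPM in all particle-treated libraries.

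Ranked by group mean, both unigenes had the same order. For DN37211_c0_g1 the means were 26.3 ± 10.9 TPM in DS_CNCs, 18.8 ± 11.9 in DS_Si NPs, 16.3 ± 10.4 in Si NPs, 4.6 ± 3.98 in CNCs, 1.99 ± 2.64 in DS and 0.82 ± 0.85 in CK (SD, n = 3). For DN112537_c0_g1 they were 48.4 ± 33.8 TPM in DS_CNCs, 37.9 ± 20.8 in DS_Si NPs, 27.0 ± 19.0 in Si NPs, 5.66 ± 3.92 in CNCs (SD, n = 3) and 0 in both DS and CK. Adjacent groups at the top of the order did not differ beyond their spread: the libraries of DS_CNCs and DS_Si NPs overlapped for both unigenes, as did those of DS_Si NPs and Si NPs. The libraries of Si NPs and CNCs overlapped for DN37211_c0_g1 but not for DN112537_c0_g1, where the CNCs mean was 0.21 of the Si NPs mean at a dose that was also lower. For DN37211_c0_g1 the CNCs and DS libraries overlapped, and so did those of DS and CK.

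Relative to CK, the fitted log2 fold change of DN37211_c0_g1 was 4.41 ± 1.26 (SE) with Si NPs, which is 21.2-fold, and 2.13 ± 1.20 with CNCs. With drought alone it was 1.23 ± 1.21, about its own standard error. Relative to DS it was 3.43 ± 1.17 with Si NPs (10.8-fold) and 3.62 ± 1.17 with CNCs (12.3-fold). The first 3 of these values share the CK libraries and the last 2 share the DS libraries. Without CK 3 the values against CK were 4.11 for Si NPs, 1.83 for CNCs and 0.94 for DS. Single libraries moved them more: without CK 1, the highest CK library, the difference from CK was 5.84 with Si NPs, 3.56 with CNCs and 2.67 with drought, whereas without DS 3 the drought difference was -0.63. Leaving out DS 3 also raised the differences from DS to 5.27 with Si NPs and 5.46 with CNCs.

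Because CK and DS held no read of DN112537_c0_g1, its fold change is only a lower bound, computed with a floor of 3 counts over the control group. On that basis it was at least 44.6-fold higher in Si NPs and at least 7.80-fold higher in CNCs than in CK. It was at least 53.3-fold higher in DS_Si NPs and at least 66.5-fold higher in DS_CNCs than in DS. No value exists for DS against CK. Without CK 3 the bounds against CK were 5.00 for Si NPs and 2.47 for CNCs in log2, compared to 5.48 and 2.96 with all libraries. Other libraries lowered the bounds by more: for Si NPs to 4.62 without CK 2 and 4.88 without Si NPs 3, and for CNCs to 2.09 without CK 2 and 2.28 without CNCs 1. The bounds against DS were 5.74 and 6.06 in log2. With Si NPs this became 5.14 without DS 1 and 4.97 without DS 3. With CNCs it became 5.47 without DS 1, 5.29 without DS 3 and 5.26 without DS_CNCs 1. These bounds cover counting error in CK or DS only. The treated counts are taken as observed, and those of CNCs came to 24.0 in all. Spread between libraries is not covered.

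Each particle was given under both water regimes. With Si NPs, droughted leaves held 1.15 times the watered level of DN37211_c0_g1 and 1.4 times that of DN112537_c0_g1, and the libraries overlapped. With CNCs, droughted leaves held 5.72 and 8.56 times the watered level, and no library overlapped for either unigene. Whether the particles differ in this respect was not tested, because the unigenes were selected on these levels.

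The 2 unigenes did not keep a fixed ratio. The level of DN112537_c0_g1 divided by that of DN37211_c0_g1 ranged from 0.57 to 4.16 in Si NPs, from 0.41 to 20.6 in CNCs, from 1.15 to 4.18 in DS_Si NPs and from 0.99 to 3.31 in DS_CNCs. The value of 20.6 came from the library CNCs 2, in which DN37211_c0_g1 rested on 1 count. Summed as 1 gene, their counts gave a log2 fold change of 5.01 with Si NPs and 2.64 with CNCs against CK, and 4.10 and 4.29 against DS.

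Among the 36 other CBF and DREB1 unigenes that passed the count filter, 4 had levels most like those of DN37211_c0_g1 over the 18 libraries, by Pearson's r of log2(TPM + 0.5). These were CRT-binding factors DN19213_c0_g1 (r = 0.93), DN55677_c0_g1 (r = 0.92) and DN13175_c0_g1 (r = 0.72), and the DREB1C-like unigene DN21822_c1_g1 (r = 0.91). The last of these was also the closest to DN112537_c0_g1 (r = 0.90). The r values are descriptive and the libraries share groups. The 4 unigenes were 389, 256, 209 and 257 bases long. The next value for DN37211_c0_g1 among the 36 was 0.51, and unigenes below the filter were not ranked.

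DN21822_c1_g1 stood at 0.71, 0 and 0 TPM in CK and at 0, 0 and 1.66 TPM in DS. It reached 8.08, 21.6 and 9.49 TPM in Si NPs, and 7.44, 2.35 and 1.98 TPM in CNCs. Under drought it was at 2.17, 39.0 and 12.2 TPM with Si NPs and at 57.3, 28.1 and 25.0 TPM with CNCs. All particle-treated libraries were above all libraries without a particle under the same water regime. A unigene is called risen or fallen here when edgeR gave an adjusted p under 0.05 with a log2 difference past 2. By that rule it was the one other CBF or DREB1 unigene of 36 tested that rose in DS_Si NPs, and none fell, where 2.34% of all 55979 tested unigenes rose and 1.04% fell. Its log2 fold change there was 4.84 ± 1.29 (adjusted p = 0.037), and the call was lost without DS 1, DS 2 or DS_Si NPs 2 (adjusted p up to 0.15). In DS_CNCs, where 3.48% of all tested unigenes rose and 2.32% fell, it rose by 5.73 ± 1.32 (adjusted p = 0.015), a call lost without DS 1 or DS 2 (up to 0.074). Among 40 unigenes of the list that passed the filter in those fits, 2 rose in DS_CNCs without DS 3, and 1 fell in DS_Si NPs without DS_Si NPs 3. The medians of the 36 were -0.73 and 0.88 in these comparisons. Over all unigenes 97 rose and 47 fell in DS_Si NPs without DS 2, 337 and 336 without DS 1, and 242 and 89 without DS_Si NPs 2. In DS_CNCs 400 rose and 432 fell without DS 2, 697 and 905 without DS 1, 862 and 465 without DS_CNCs 1, and 881 and 556 without DS_CNCs 2. In CK vs Si NPs its difference of 5.69 ± 1.503 did not pass (adjusted p = 0.053).

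DN55677_c0_g1 reached 57.2, 96.2 and 20.7 TPM in DS_CNCs and 0.55, 60.3 and 20.9 TPM in DS_Si NPs, from 0, 0 and 3.9 in DS. Its log2 fold changes of 5.28 ± 1.85 and 4.36 ± 1.80 did not pass (adjusted p = 0.077 and 0.14). DN13175_c0_g1 had 67.7 TPM in DS_Si NPs 2 and 69.1 in DS_CNCs 1 but 0 in DS_CNCs 3. DN19213_c0_g1 was at 0 in CK and at 0.25, 5.79 and 5.94 TPM in Si NPs. None of these 3 was called in any of the 5 comparisons.

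A second class of CRT-binding factors was abundant in all libraries. DN2727_c0_g1, the longest at 2140 bases, lay between 27.1 TPM in DS 1 and 111 TPM in DS_CNCs 2. Its means were 48.9 TPM in CK and 29.6 TPM in DS, and it was higher than DS by 1.30 ± 0.29 in log2 in DS_Si NPs (edgeR adjusted p = 0.022) and by 1.45 ± 0.29 in DS_CNCs (adjusted p = 0.0090), both below the log2 threshold of 2. DN21822_c0_g1, DN2727_c2_g1 and DN13175_c0_g2 had group means of 16.7 to 41.0 TPM, with no call. DN9486_c0_g1, 280 bases long, went the other way from DN37211_c0_g1 and DN112537_c0_g1. Its mean was 55.0 TPM in CK and 65.3 in DS, compared to 24.3 under drought with Si NPs and 9.90 with CNCs. From DS to DS_CNCs it fell by 2.81 ± 0.55 in log2 (adjusted p = 0.0083, and at most 0.043 with any 1 library left out). Its correlation with DN37211_c0_g1 was -0.68.

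**Figure D2:**
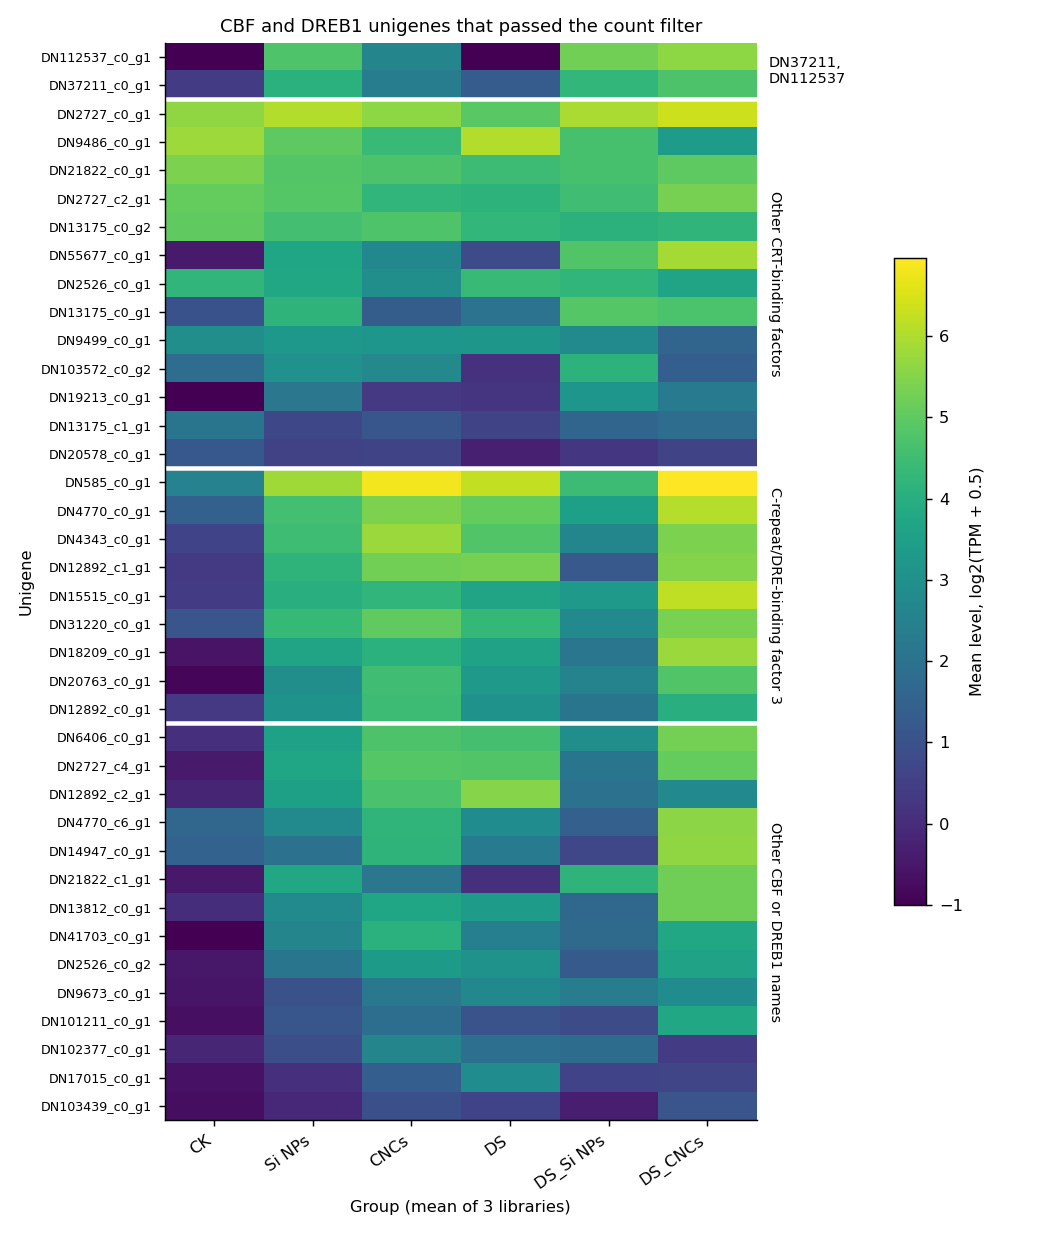
Mean level of each CBF or DREB1 unigene that passed the count filter, on the log2(TPM + 0.5) scale, in the 6 groups (n = 3 libraries each). DN37211_c0_g1 and DN112537_c0_g1 at the top are dark in CK and DS, while the unigenes named C-repeat/DRE-binding factor 3 are dark in CK and brighter in DS.

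The next class had names of C-repeat/DRE-binding factor 3. Its 12 unigenes summed to 12.7 ± 7.98 TPM in CK, and among watered leaves to 181 ± 157 with Si NPs and 358 ± 203 with CNCs (SD, n = 3). Droughted leaves held 236 ± 197 TPM alone, 68.8 ± 73.7 with Si NPs and 517 ± 524 with CNCs. Unlike DN37211_c0_g1 and DN112537_c0_g1, this class was above CK in all 3 DS libraries (75.9, 177 and 455 TPM). Its most abundant unigene, DN585_c0_g1, stood at 5.27 TPM in CK and 75.2 in DS, with a log2 fold change of 4.18 ± 1.57 (edgeR adjusted p = 0.15). The libraries Si NPs 2, DS_Si NPs 2 and DS_CNCs 2 had the lowest sums of C-repeat/DRE-binding factor 3 in their groups, at 9.68, 8.32 and 12.1 TPM. The same 3 libraries had the highest level of DN37211_c0_g1 in their groups, whereas CNCs 2 was the lowest of its group for both. In DS both followed the same order, with DS 1 lowest and DS 3 highest, and in CK the order was reversed. Over the 18 libraries, r of DN37211_c0_g1 with the filtered unigenes of this class ran from -0.13 to 0.46. A link between the classes was not tested.

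DN37211_c0_g1 and DN112537_c0_g1 together made up a small share of CBF and DREB1 messenger RNA without particles and a larger one with them. The share of these 2 in the summed TPM of 50 CBF and DREB1 unigenes was 0.37 ± 0.44% in CK and 0.25 ± 0.24% in DS. Watered leaves with Si NPs had 9.38 ± 5.97%, but with CNCs only 1.38 ± 0.54% (SD, n = 3). Droughted leaves had 12.8 ± 6.36% with Si NPs and 8.48 ± 6.04% with CNCs. The lowest shares under drought with particles were 8.52% (DS_Si NPs 1) and 1.93% (DS_CNCs 3), both above the highest DS share of 0.53%. The low share in DS_CNCs 3 went with the highest sum of the whole family, 1932 TPM.

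**Figure D3:**
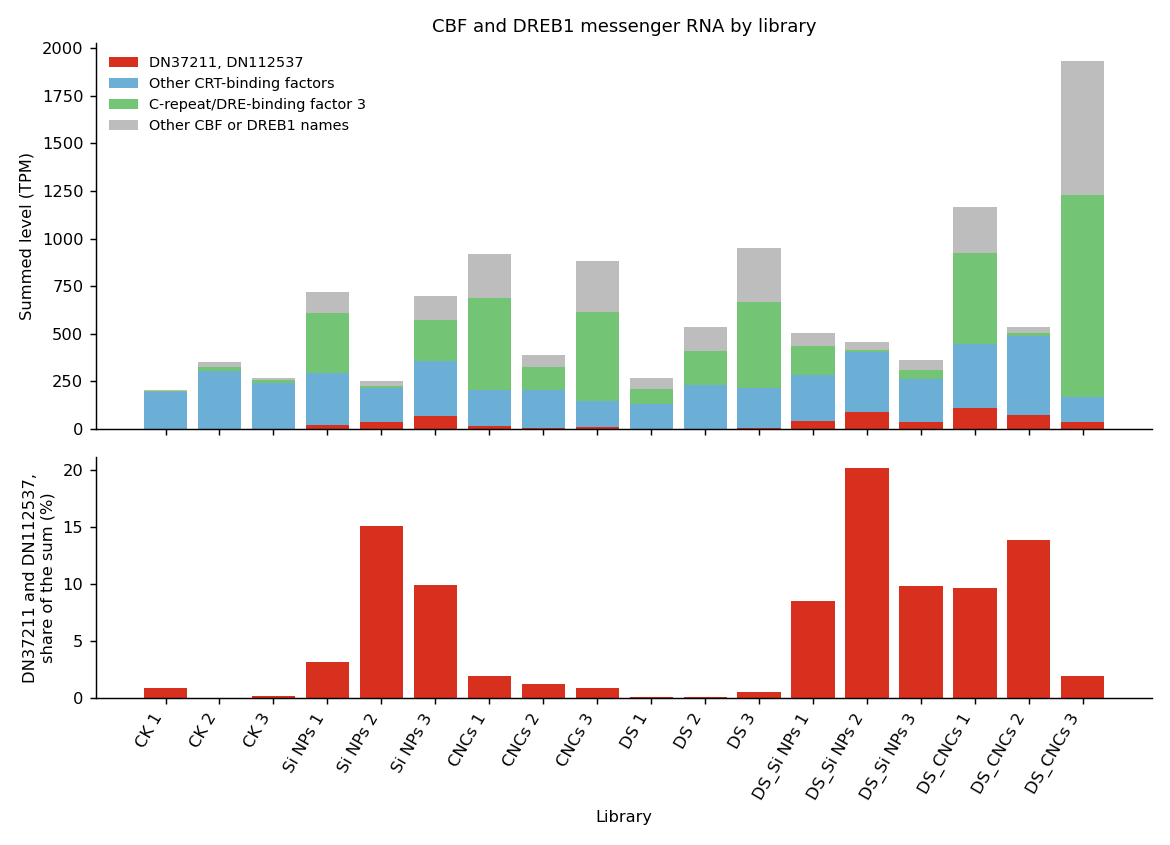
Upper panel, summed level (TPM) of CBF and DREB1 unigenes in each library, stacked by name class. Lower panel, the percentage of that sum taken by DN37211_c0_g1 and DN112537_c0_g1, which is at most 0.87% in CK and DS libraries and reaches 20.1% in DS_Si NPs 2.

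The genes around the CBF proteins were read from lists of words in the annotation. These were regulators, clock genes, factors of the early cold wave, other AP2/ERF factors and families that hold CBF targets in Arabidopsis. Whether their members are targets in tall fescue was not tested. In CK vs DS, 1.59% of all tested unigenes rose and 0.423% fell. No other CBF or DREB1 unigene was called among 36 tested by edgeR's quasi-likelihood test, although 17 were higher and 3 lower at an unadjusted p under 0.05, and DESeq2 called 12, edgeR's exact test 7 and limma 1, all higher. Their median log2 fold change was 3.48 (3.05 with unigenes at 0 in a group set to their bound), compared to 0.00 over all tested unigenes. Some of the 36 were near 0 in CK, such as DN20763_c0_g1 (0.057 TPM) and DN18209_c0_g1 (0.16 TPM), and passed the count filter through other groups. This can raise medians against CK, and the 36 may include copies that vary together. Of the regulators, 1 of 47 rose, the kinase SAPK2 unigene DN8324_c0_g1, of the family to which OST1, the kinase that phosphorylates ICE1 in Arabidopsis, belongs (3.02 ± 0.53, adjusted p = 0.0081, lost without CK 2 or CK 3 with adjusted p up to 0.061). No clock gene of 31 and no other DREB factor of 5 was called. At an unadjusted p under 0.05, 1 clock gene was higher and 5 were lower, and 1 other DREB factor was higher. DESeq2 called 1 clock gene lower and 1 other DREB factor higher, and the exact test 1 clock gene lower.

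Some members of the families that hold CBF targets in Arabidopsis rose with drought, in libraries where DN112537_c0_g1 was at 0. Other CBF unigenes were present there. All 50 CBF and DREB1 unigenes summed to 585 ± 342 TPM in DS and 274 ± 72.3 in CK (SD, n = 3), with overlapping libraries. A link between these levels was not tested. Of 36 tested cold-regulated, dehydrin and LEA unigenes, 5 rose in CK vs DS and none fell, with a list median of 2.08. The list was made by words, and 1 of the 5, DN7682_c0_g1, is named cold-responsive protein kinase 1. Its call (3.08 ± 0.75, adjusted p = 0.034) was lost with any 1 library left out (adjusted p up to 0.15). Early salt stress and cold acclimation-induced protein DN5932_c0_g1 went from 4.25 ± 0.96 to 64.9 ± 27.3 TPM (3.97 ± 0.51, adjusted p = 0.0015). This call was kept with every single library left out (adjusted p up to 0.019). Dehydrin DN5458_c0_g1, whose protein family protects membranes in drying cells, went from 15.9 ± 3.28 to 154 ± 130 TPM (3.38 ± 0.83, adjusted p = 0.036), while low temperature-induced protein DN9099_c0_g1 went from 3.08 ± 0.51 to 54.2 ± 53.9 TPM (4.31 ± 0.81, adjusted p = 0.011, lost without CK 2, CK 3 or DS 2 with adjusted p up to 0.078). The count of 5 became 2 without CK 1 and 1 without CK 2, CK 3 or DS 2. The dehydrin call was lost without CK 1, CK 2, CK 3 or DS 2 (adjusted p up to 0.17).

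Some sugar and gibberellin genes rose in the same comparison. Of 63 osmolyte enzymes, 6 rose and none fell, among them galactinol synthase 2 DN3555_c0_g1, an enzyme of raffinose synthesis (7.38 ± 5.09 to 57.4 ± 11.1 TPM, log2 fold change 2.98 ± 0.63, adjusted p = 0.018). Without CK 2, CK 3 or DS 2 none of these was called, without CK 1 the count was 2 and without DS 1 it was 3 (for DN3555_c0_g1 the adjusted p was up to 0.11). Of 17 gibberellin genes, 3 rose, all of them enzymes of the gibberellin 2-oxidase type, which inactivates the hormone. DN27187_c0_g2 rose by 2.58 ± 0.35 (adjusted p = 0.0019) and DN8351_c0_g1 by 4.02 ± 0.63 (adjusted p = 0.0045), both kept with any 1 library left out. The last of them, DN27187_c0_g1, had 0.063 TPM in CK and 3.23 in DS and was lost without CK 1, CK 2, CK 3 or DS 2 (adjusted p up to 0.13), which left 2. Of 87 other AP2/ERF factors, 13 rose. The count was 2 without CK 1 or CK 3, none without CK 2 and 1 without DS 2. The CCCH zinc finger unigene DN119089_c0_g1 was the 1 of 77 early-wave unigenes that fell, by 2.58 ± 0.41 (adjusted p = 0.0049, kept with any 1 library left out). Over all tested unigenes 102 rose and 48 fell (0.163% and 0.0765%) without CK 3. Without CK 1 325 rose, without CK 2 159 and without DS 2 269, and 138 fell without DS 1.

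With particles on watered leaves, few of these genes were called. In CK vs Si NPs 0.847% of all tested unigenes rose and 0.179% fell, and in CK vs CNCs 0.291% rose and 0.0857% fell. With any 1 library left out, 3 to 156 unigenes rose and 0 to 32 fell in Si NPs, and 3 to 46 rose and 0 to 26 fell in CNCs. The lowest counts of rises were without CK 3. Without Si NPs 1, 1 clock gene fell. Gibberellin 20-oxidase DN7337_c0_g1, a late enzyme of hormone synthesis, rose in Si NPs from 1.23 ± 0.61 to 9.61 ± 3.56 TPM (3.22 ± 0.55, adjusted p = 0.021), a call lost when CK 2 or CK 3, or Si NPs 2 or 3, was left out (highest adjusted p, 0.15). Cold acclimation WCOR413-like protein DN37935_c0_g1 fell in CNCs from 18.6 ± 3.28 to 5.01 ± 1.79 TPM (fell by 2.11 ± 0.34, adjusted p = 0.019), a call lost without CK 1, CK 3 or any CNCs library (up to 0.10). Neither was accompanied by a call among 36 other CBF and DREB1 unigenes. Their medians were 3.76 in Si NPs and 4.06 in CNCs, compared to 0.07 and 0.08 over all tested unigenes. These medians (3.73 and 4.02 at the bound) have the same limit from unigenes near 0 in CK. At an unadjusted p under 0.05, 20 of the 36 were higher and 1 lower in Si NPs, and 18 higher and 4 lower in CNCs. DESeq2 called 14 and 12 and the exact test 2 and 4, all higher. Limma called 1 higher and 1 lower in Si NPs and none in CNCs. Beside these results, 7 of 56 tested leaf markers fell in CNCs, with a median of -1.36, and their sum was 49416 to 61970 TPM, compared to 59869 to 118161 TPM in CK. Their part in the result was not tested.

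**Figure D4:**
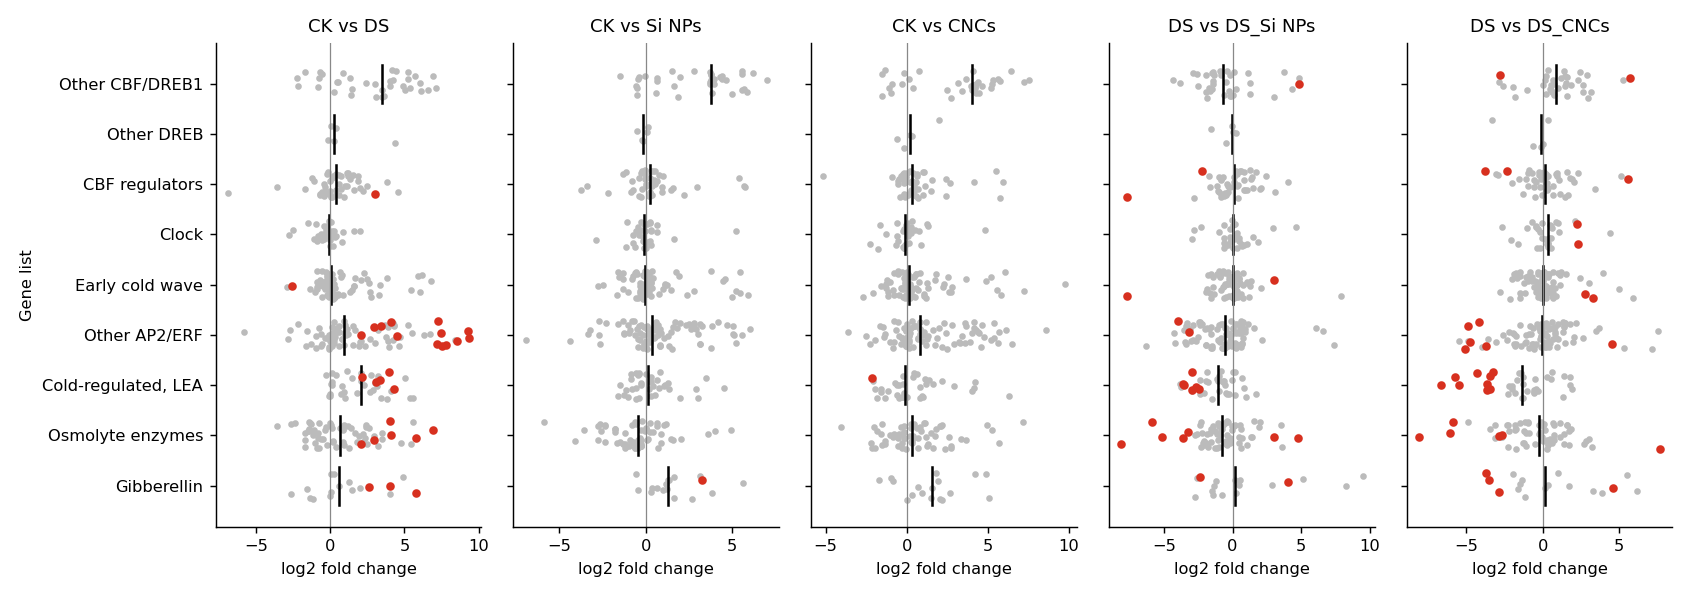
Fitted log2 fold change (second group over first) of each tested unigene in 9 lists, for 5 comparisons, with its own axis in each panel. Red points were called (edgeR adjusted p below 0.05 and log2 fold change past 2), grey points were not, and black lines are medians. Red points of the cold-regulated and LEA list lie to the right in CK vs DS (5 unigenes) and to the left in DS vs DS_Si NPs (6) and DS vs DS_CNCs (9).

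In droughted leaves both CRT-binding factors were higher with particles than without, and the summed messenger RNA of the cold-regulated, dehydrin and LEA list was lower in most libraries. Its unigenes summed to 3541, 9093 and 5104 TPM in DS (mean 5913). Much of this came from LEA unigenes DN17784_c0_g1, DN325_c0_g1 and DN3211_c0_g1, with DS means of 1270 ± 906, 1265 ± 1103 and 854 ± 345 TPM. The list summed to 2282, 1443 and 3270 TPM in DS_Si NPs and to 1931, 1366 and 3702 TPM in DS_CNCs, with CK libraries between 1989 and 2170 TPM. Only DS_CNCs 3 overlapped with DS, and DS_CNCs 3 also had the lowest level of both DN37211_c0_g1 and DN112537_c0_g1 in its group. In DS_Si NPs the highest sum was in DS_Si NPs 3. That library was the lowest of its group for DN112537_c0_g1 (19.0 TPM) but not for DN37211_c0_g1 (16.4 TPM, against 8.26 in DS_Si NPs 1). A link between these levels was not tested.

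In DS vs DS_Si NPs, 6 of 36 cold-regulated and LEA unigenes fell and none rose (median -1.03, compared to 0.14 over all tested unigenes). Of all tested unigenes 2.34% rose and 1.04% fell. DN5932_c0_g1 fell by 2.67 ± 0.48 to 9.82 ± 6.99 TPM (adjusted p = 0.011), a call lost narrowly without DS 2 (adjusted p = 0.05001). Group 3 LEA protein DN325_c0_g1 fell from 1265 ± 1103 to 266 ± 15.9 TPM (fell by 2.46 ± 0.52, adjusted p = 0.019, lost without DS 2 or DS_Si NPs 2 with adjusted p up to 0.088). The count became 0 without DS 2, 1 without DS_Si NPs 2 and 2 without DS_Si NPs 1. Over all tested unigenes, 0.154% rose and 0.0748% fell without DS 2. Of 63 osmolyte enzymes 5 fell and 2 rose, and without DS 1, DS 2 or DS_Si NPs 2 none did. Without DS 3 1 rose and 3 fell, without DS_Si NPs 1 2 fell and without DS_Si NPs 3 2 rose. Of the enzymes that fell, galactinol synthase 1 DN56001_c0_g1 went from 63.5 ± 52.7 to 1.13 ± 0.46 TPM (adjusted p = 0.046, lost without any library but DS 3, up to 0.15). All the other falls and both rises were of unigenes with fructosyltransferase names, a type of enzyme that builds fructan. DN31858_c0_g2 fell from 7.61 ± 4.18 to 0 TPM (adjusted p = 0.032) and DN41850_c0_g1 from 8.50 ± 5.42 to 0.19 ± 0.17 TPM (adjusted p = 0.039). Both calls were lost without any library but DS 3 (up to 0.18). DN34142_c0_g1 rose from 0.70 ± 0.65 to 18.6 ± 6.92 TPM (4.80 ± 1.25, adjusted p = 0.035, lost without any library but DS_Si NPs 3, up to 0.13). Beside these results 2 of 56 leaf markers rose, with a median of 1.12, and their sum was 79479 to 134835 TPM, compared to 62490 to 83135 in DS. Their part in the result was not tested.

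In DS vs DS_CNCs, 9 of 36 cold-regulated and LEA unigenes fell and none rose (median -1.33, compared to 0.10 over all tested unigenes). Of all tested unigenes 3.48% rose and 2.32% fell. DN5932_c0_g1 fell by 3.62 ± 0.50 (adjusted p = 0.0016) and DN9099_c0_g1 by 6.64 ± 0.94, to 0.63 ± 0.40 TPM (adjusted p = 0.0017). DN325_c0_g1 fell by 3.22 ± 0.54, to 180 ± 32.3 TPM (adjusted p = 0.0042). These 3 calls were kept with any 1 library left out (adjusted p up to 0.024). The count of 9 was 4 without DS 2 or DS_CNCs 2 and 5 without DS_CNCs 1. Of 63 osmolyte enzymes 5 fell and 1 rose, with galactinol synthase 2 DN3555_c0_g1 back at 9.43 ± 3.86 TPM (fell by 2.67 ± 0.62, adjusted p = 0.018, lost without DS 2 or DS_CNCs 2, up to 0.070). The rise was lost without any library but DS_CNCs 3. The osmolyte falls became 0 without DS 2, 1 without DS_CNCs 2, 2 without DS 1 or DS_CNCs 1, 3 without DS_CNCs 3 and 8 without DS 3. Of the leaf markers 1 rose and 1 fell.

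**Figure D5:**
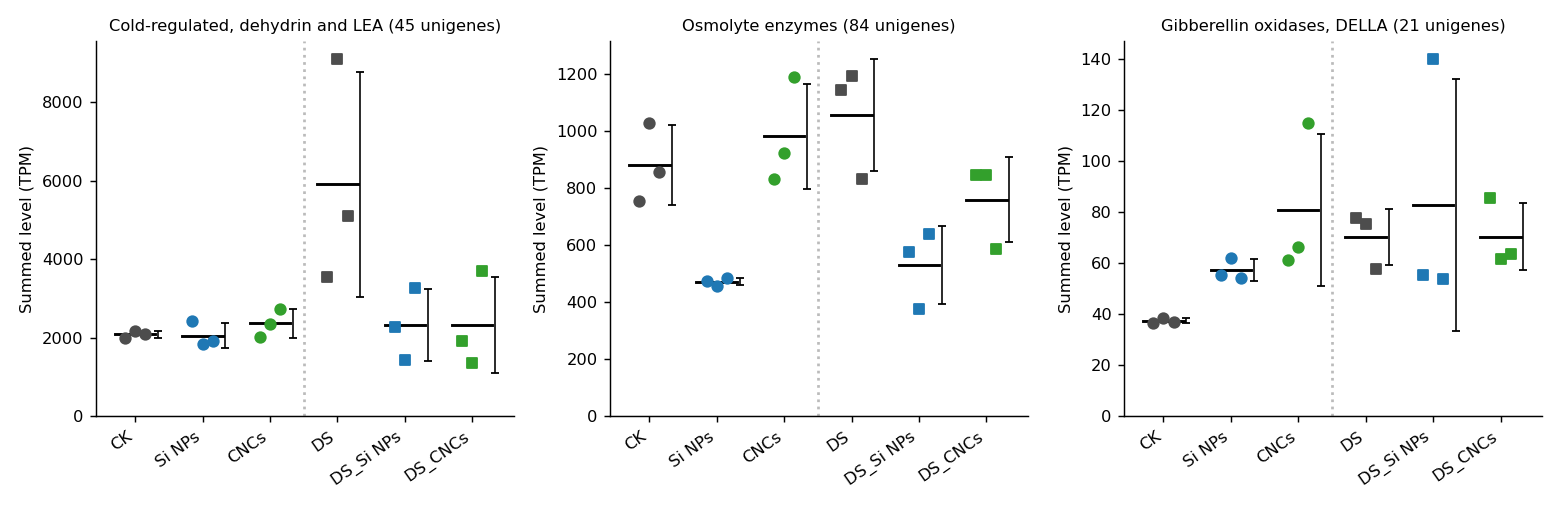
Summed level (TPM) by library and group of 3 lists made by words, from families that hold CBF targets in Arabidopsis, with means and SD (n = 3). Whether their members are targets in tall fescue was not tested. The cold-regulated, dehydrin and LEA sum is highest in DS (3541 to 9093 TPM), where DN37211_c0_g1 is at most 5.03 TPM and DN112537_c0_g1 is at 0. All 50 CBF and DREB1 unigenes sum to 269 to 948 TPM in DS libraries and 205 to 349 TPM in CK libraries.

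Regulators and growth genes also moved in droughted leaves. DN8324_c0_g1 fell from 100 ± 66.8 TPM in DS to 20.6 ± 10.2 in DS_Si NPs (adjusted p = 0.026) and 20.2 ± 11.6 in DS_CNCs (adjusted p = 0.015). Both calls were lost without DS 2 or without replicate 1 or 2 of the treated group (adjusted p up to 0.13). A second SAPK unigene, DN101271_c0_g1, went from 18.3 ± 9.76 TPM in DS to 0 in all 3 DS_Si NPs libraries (adjusted p = 0.015, lost without DS 2 at 0.063). In DS_CNCs it fell by 3.75 ± 1.05, to 1.21 ± 1.16 TPM (adjusted p = 0.038, lost without any library but DS 1, up to 0.13). Gibberellin 20-oxidase DN7337_c0_g1 rose from 0.37 ± 0.21 TPM to 5.69 ± 1.47 with Si NPs (4.03 ± 0.58, adjusted p = 0.0047) and 9.86 ± 3.57 with CNCs (4.64 ± 0.60, adjusted p = 0.0010), and both calls were kept with any 1 library left out. Gibberellin 2-beta-dioxygenase DN8351_c0_g1 fell by 2.87 ± 0.59 with CNCs (adjusted p = 0.011, at most 0.049 with 1 library left out). With Si NPs it fell by 2.40 ± 0.58 (adjusted p = 0.029, lost without DS 1, DS 2, DS_Si NPs 1 or DS_Si NPs 2, up to 0.095).

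Of 31 clock genes, 2 rose in DS vs DS_CNCs, where 3.48% of all tested unigenes rose. LUX-B DN128943_c0_g1, a part of the evening complex, went from 10.8 ± 6.65 to 57.3 ± 19.1 TPM (2.33 ± 0.40, adjusted p = 0.0044, at most 0.032 with 1 library left out). PRR1 unigene DN60539_c0_g2 went from 0.31 ± 0.11 to 1.97 ± 0.80 TPM (adjusted p = 0.021, lost without DS 1, DS 2, DS_CNCs 1 or DS_CNCs 3, up to 0.089). In DS vs DS_Si NPs no clock gene was called, with 9 higher and 2 lower at an unadjusted p under 0.05 and 1 higher and 1 lower by DESeq2 (exact test, 1 lower). Without DS 1, DS 3 or DS_Si NPs 1, 1 clock gene rose there. CCCH zinc finger unigene DN119089_c0_g1 rose from 3.30 ± 1.34 TPM in DS to 24.6 ± 7.69 in DS_Si NPs (3.00 ± 0.42, adjusted p = 0.0042) and 34.6 ± 4.18 in DS_CNCs (3.29 ± 0.42, adjusted p = 0.0010), both kept with any 1 library left out. Unlike DN37211_c0_g1, it was high in CK, at 19.7 ± 8.44 TPM.

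Counts for the remaining lists in droughted leaves were as follows. Over all tested unigenes 2.34% rose and 1.04% fell in DS_Si NPs, and 3.48% rose and 2.32% fell in DS_CNCs. Of 47 regulators 2 fell in DS_Si NPs and 1 rose and 2 fell in DS_CNCs. The falls became 0 without DS 2 in either comparison, and 0 without DS_CNCs 1 or DS_CNCs 2 in DS_CNCs. In DS_Si NPs they became 1 without DS_Si NPs 2 and 3 without DS_Si NPs 1, and in DS_CNCs 1 without DS 3 or DS_CNCs 3. The unigene that rose, DN30107_c0_g1 of the EIN3 type, was not called with any 1 library left out (adjusted p up to 0.15). Of 87 other AP2/ERF factors 2 fell with Si NPs (0 without DS 2 or DS_Si NPs 2 and 1 without DS 1, DS_Si NPs 1 or DS_Si NPs 3). With CNCs 5 fell and 1 rose (falls 0 without DS_CNCs 2 and 1 without DS 2 or DS_CNCs 1, and no rise with any library left out). Of 77 early-wave unigenes 1 rose and 1 fell with Si NPs, and 2 rose with CNCs. The unigene that fell, DN47013_c0_g1, and DN43728_c0_g1, which rose with CNCs beside DN119089_c0_g1, were not called with any 1 library left out (adjusted p up to 0.11 and 0.14). The count of early-wave falls with Si NPs was 0 in those fits except without DS_Si NPs 3, where it was 1. Rises with CNCs numbered 2 without DS_CNCs 2 and 1 in the other fits, and 2 early-wave unigenes fell without DS_CNCs 3. Of 17 gibberellin genes 1 rose and 1 fell with Si NPs and 1 rose and 3 fell with CNCs (falls 0 without DS 1, DS 2, DS_Si NPs 1 or DS_Si NPs 2 with Si NPs, and 1 without DS 1, DS 2, DS_CNCs 1 or DS_CNCs 2 with CNCs). Without DS 3, 2 gibberellin genes rose with CNCs. No other DREB factor of 5 was called in either comparison, with none higher and 1 lower, in DS_CNCs, at an unadjusted p under 0.05, and none by DESeq2, the exact test or limma. The most abundant of them, DN9735_c0_g1, stayed within 19.2 to 27.9 TPM in group mean.

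Of all described unigenes that passed the filter and reached a group mean of 5 TPM (19645), those most like DN37211_c0_g1 over the 18 libraries had only uncharacterized or predicted products: DN18362_c0_g1, DN1688_c1_g1, DN31076_c0_g1, DN19314_c0_g1 and DN87674_c0_g1, and had r of 0.93 to 0.94 on log2(TPM + 0.5). DN31076_c0_g1 was at 0.76 to 8.52 TPM without a particle and 4.65 to 41.4 TPM with one. Those most like DN112537_c0_g1 had r of 0.91 to 0.92. They were hypothetical protein DN33912_c0_g1, 40S ribosomal protein S15 DN510_c1_g1, Callose synthase 3 DN89480_c0_g1, a putative DNA helicase, DN778_c2_g1, and Glycosyl transferase DN50783_c0_g1. DN89480_c0_g1, named for an enzyme that lays down callose in cell walls, was at 0 to 0.10 TPM without a particle and at 5.55 to 32.8 TPM with one. DN50783_c0_g1 was at 0 in all 6 libraries without a particle and at 0.57 to 7.39 TPM with one. These r values are a description with no test, and nothing about shared control was measured.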

How the data were processed

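Leaf poly(A) RNA was sequenced by the authors as strand-specific read pairs, trimmed with Cutadapt, checked with FastQC and assembled with Trinity into unigenes without a reference genome; annotations came from DIAMOND matches. The deposited estimated counts were made by the authors with Salmon; 452055 of them are not whole, so all were rounded. The deposited TPM columns, which Salmon also gave the authors, adjust reads for unigene length and sequencing depth. The authors' unigene lengths are used as deposited. The study's physiology and qRT-PCR were not used here.

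After filterByExpr kept 55979 unigenes, TMM factors were computed and 1 quasi-likelihood model of the 6 groups was run in edgeR 4.0.16 (R 4.3.3). Calls needed a Benjamini-Hochberg adjusted p below 0.05 over all tested unigenes and a log2 fold change past 2, the thresholds of the study's methods. Adjusted p-values come from edgeR unless another tool is named, and standard errors from the same model. With 3 libraries a group an exact permutation test cannot go below p = 0.1. The sources do not say how many plants each library held, so p-values measure the spread between these libraries. Both CRT-binding factors and the lists, made by words in the annotation, were chosen with earlier results of these data known. Named unigenes are the 2 CRT-binding factors, other CBF and DREB1 names, in each list the 3 most abundant and up to 3 called unigenes per comparison, and the 5 most alike in level. Dehydrin DN5458_c0_g1 and galactinol synthase 1 DN56001_c0_g1 were named after their values were seen. Of 109684 unigenes 42440 have a description. The steps were tested on simulated data. Alternatives were RLE scaling, no filter, a replicate block, only 6 libraries in the fit, edgeR's exact test, DESeq2 1.42.0, limma 3.58.1 on log2(TPM + 0.5) or log2(TPM + 0.1), a log2 threshold of 1, summed counts of the 2 unigenes and each library left out. Fits with a library left out were filtered anew and tested 62268 to 63123 unigenes.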

Additional observations from a re-analysis of the deposited data

How the results depend on the processing

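Without an adjusted call of their own, the 2 CRT-binding factors are given as ranges over fits with 1 library left out. For DN37211_c0_g1 the log2 fold change ran from 3.84 to 5.84 in CK vs Si NPs, 1.41 to 3.56 in CK vs CNCs, -0.63 to 2.67 in CK vs DS, 2.72 to 5.27 in DS vs DS_Si NPs and 3.09 to 5.46 in DS vs DS_CNCs. For DN112537_c0_g1 the lower bound ran from 4.62 to 5.77, 2.09 to 3.31, 4.97 to 6.03 and 5.26 to 6.36 in the comparisons with a particle, in the order Si NPs, CNCs, DS_Si NPs and DS_CNCs.

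The count of called unigenes over the 9 lists was 29 in CK vs DS, 1 in CK vs Si NPs, 1 in CK vs CNCs, 22 in DS vs DS_Si NPs and 34 in DS vs DS_CNCs. With 1 library left out it ran from 4 to 26, 0 to 2, 0 to 1, 2 to 18 and 10 to 33 in the same order. With only the 6 libraries of a comparison it was 56, 11, 39, 0 and 18, and with DESeq2 83, 39, 45, 48 and 62. The exact test gave 64, 11, 25 and 34 in the first 4. In CK vs Si NPs and CK vs CNCs, limma gave 9 and 6 with a pseudocount of 0.5 and 4 and 5 with 0.1, and a log2 threshold of 1 gave 4 and 4. Without the filter the drought comparisons with Si NPs and CNCs gave 8 and 21. Libraries of 1 replicate number did not deviate together (mean r of 0.005 over 45 pairs). A replicate block gave 9 calls in DS vs DS_Si NPs and moved no other count past 1.5 times, and the log2 fold change of DN37211_c0_g1 was then 4.32 in CK vs Si NPs. Of 411 other fits of 52 named calls 58 were lost, and of 312 fits with 1 library left out 137 were lost, none with a change of sign. The causes were not tested. Low counts limit DN37211_c0_g1 in CK, where it had 11 estimated counts in all. In the fit of only 6 libraries it had no value in CK vs DS or CK vs CNCs, since it did not pass the filter.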
